A study of Mus musculus with 8 samples.

Results

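Integrins and cadherins are the membrane receptors through which cells hold on to the matrix and to each other, and 43 of their genes were followed in molar mesenchyme with and without deletion of *Ezh2*. They were taken from the 20926 genes of the table by name: every integrin alpha gene (17), every integrin beta gene (8) and every cadherin gene with a number (18), leaving out *Cdh1* and *Cdh5*. The same naming rule covers *Cdh9*, *Cdh16*, *Cdh26* and *Itgad*, which were not analysed here. An integrin is a pair of 1 alpha and 1 beta chain, and the alpha chain largely sets whether it binds collagen, laminin, the RGD motif of fibronectin and related proteins, or a receptor on another cell. Classical cadherins bind their like on the neighbouring cell and are tied to actin by catenins, and in teeth both families are known for sorting epithelium from mesenchyme and for holding the cell layers to the basement membrane between them. Not all 18 cadherin genes are classical: *Cdh13* codes for a cadherin with a lipid anchor and no tail inside the cell, *Cdh17* for a cadherin of the intestine with extra repeats, and *Cdh23* for the tip-link cadherin of hair cells, so that the genes are called here by their numbers.

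The libraries came from molars at postnatal day 3 of 4 *Ezh2 fl/fl* samples (control) and 4 *Osr2KI-Cre;Ezh2 fl/fl* samples (*Osr2-Cre;Ezh2 fl/fl*, called mutant below). Their strain is labelled C57BL/6, although the study's methods describe a mixed background. All 8 carry floxed *Ezh2*, the gene of the histone H3K27 methyltransferase of PRC2, and the groups differ in the *Osr2-Cre* allele, whose Cre is active in mesenchymal cells of the tooth and in the bone around it and leaves *Ezh2* of epithelial cells intact. The epithelium was taken off before RNA was isolated. The study's methods give mice at n = 4 per group but do not say in words that each library is 1 mouse. The p-values measure the spread between these samples. The deposited values are scaled so that the 75th percentile is near 38.5 in every library. Reads were estimated by dividing by the smallest value of a library and taking off 1, so that the smallest value counts as no read. This gave 48.3 to 68.8 M estimated reads per library. Read numbers given here are such estimates, since many low values are not whole multiples of the smallest one. Library values are given below in the order 1 to 4 within each group.

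*Ezh2* itself, which checks the group labels, was at 55.0, 38.3, 39.6 and 39.0 in the control and 35.2, 30.1, 23.2 and 36.0 in the mutant libraries. Each mutant value lay under each control value, by a log2 difference of -0.46 (SE 0.16) that did not pass adjustment (limma, adjusted p = 0.235). Reads of *Ezh2* were thus still present in each mutant library. A value for the whole gene does not show whether the floxed part was removed, and cells without Cre keep the gene. By immunofluorescence, the paper found neither Ezh2 nor H3K27Me3 in the mutant mesenchyme of newborn molars. Among the alternatives the difference of the *Ezh2* transcript passed only with enamel transcripts as a covariate, at -0.64 (limma adjusted p = 0.0274, in a range of 0.0274 to 0.670). The tissue label was checked with marker lists. All 13 dental mesenchyme markers were in the table and tested, with summed values of 3049.5, 3054, 2648 and 2678 in control and 2929.7, 2593, 2498 and 2477 in mutant libraries, *Vim* being the most abundant. Among these 13, 1 rose and 0 fell after adjustment in limma, and 4 were higher and 0 lower at an unadjusted p under 0.05. Of all tested genes 1.56% rose and 0.512% fell, and 8.27% were higher and 4.87% lower at an unadjusted p under 0.05. Epithelial transcripts were present as well: all 7 markers of dental epithelium and ameloblasts were measured, and their sums were 2220.2, 4206, 18290.0 and 31754 in control and 3289, 2296, 13320.0 and 2202 in mutant libraries, led by the enamel gene *Amelx*. The sums of control libraries 3 and 4 and of mutant library 3 stood far above the other 5. All 4 odontoblast markers were measured too, with sums of 9228, 11340.0, 10836 and 9684 against 7429, 9291, 7946 and 8004, led by *Col1a1*. All 4 had negative log2 differences, and 1 of them, *Dspp* at -1.13, had an unadjusted p under 0.05 in limma, beside 4.87% of all tested genes that were lower. In such bulk tissue, fewer cells of a type and less RNA per cell cannot be told apart.

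Differences were tested with limma on log2(value + 1), a scale that understates changes of genes with low values, over the 14854 genes that reached 1 in 4 or more libraries. Of the 43 genes, 36 were tested, and *Itgae*, *Itgax*, *Cdh7*, *Cdh8*, *Cdh12*, *Cdh19* and *Cdh20* were below that limit. After Benjamini-Hochberg adjustment over all genes, 2 of the 36 passed a threshold of 0.05, *Itga2* downward and *Itga7* upward, where 2.07% of all tested genes passed, 1.56% upward and 0.512% downward. An unadjusted p under 0.05 was reached by 9 of the 36 (25.0%), against 13.1% of all tested genes. Among these 9, 7 were lower and 2 higher, while over all genes 8.27% were higher and 4.87% lower. The 7 lower ones were *Itga1*, *Itga2*, *Itga3*, *Itga6*, *Itgav*, *Itgb8* and *Cdh23*. In 8 of the 36 genes the groups did not overlap, 7 lower and 1 higher, a pattern that 2.77% of all tested genes showed downward and 5.76% upward. More members were thus lower than higher, and more of all genes higher than lower. The median log2 difference was -0.16 over the 23 tested integrins, 18 of them negative, and -0.11 over the 13 tested cadherins, 7 of them negative, beside 0.01 over all tested genes, of which 54.1% were positive. The medians of both families were negative under each scaling of the libraries, but their size moved. Without control library 2 they were -0.10 and -0.04, without mutant library 2 -0.11 and -0.06, and with a pseudocount of 5 -0.12 and -0.03. Without the 3 libraries highest in enamel transcripts they were -0.21 and -0.0014. With the mean level of 4 epithelial markers as a covariate, tried once the data were known, the median of the integrins was -0.03 and 13 of 23 were negative, and with endothelial markers it was -0.05 and 12 were negative. The cadherins had medians of -0.13 and -0.08 in these fits, with 11 and 10 of 13 negative.

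**Figure D1:**
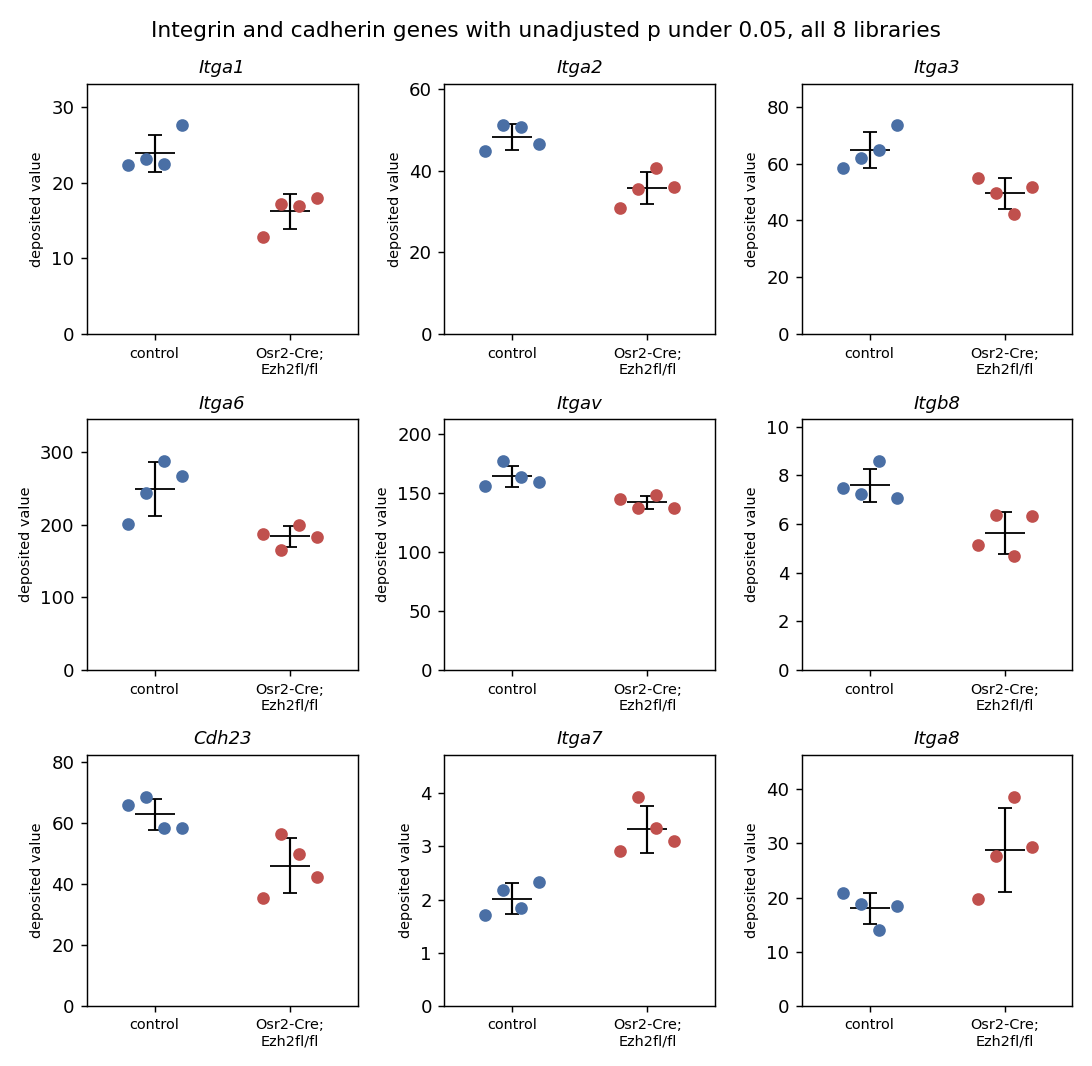
Deposited value (vertical axes, from 0) in each library of the 9 integrin and cadherin genes with an unadjusted p under 0.05, control in blue and mutant (Osr2-Cre;Ezh2 fl/fl) in red, with group means (horizontal bars) and SD (error bars, n = 4). The groups overlap in *Itga8* and in none of the other 8 panels, and *Itga7* lies under a value of 4 in every library.

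Levels of different genes were compared per kilobase of exon, with exon lengths from GENCODE. *Itgb1*, the beta chain shared by most matrix-binding integrins, was by far the most abundant of the 43, at 935, 974, 910.0 and 913 in control and 953, 982, 901 and 935 in mutant libraries, or 229 and 231 per kb. Its groups overlapped, and the log2 difference was 0.01 (SE 0.07). Since integrin chains reach the surface as pairs, the alpha chains were also summed. The summed level of the 17 alpha genes was 111, 113, 111 and 106 per kb in control and 90.6, 101, 92.3 and 96.7 per kb in mutant libraries. Every mutant sum was thus below every control sum, while the groups of *Itgb1* overlapped. Most of this lay in the laminin-binding chains *Itga3*, *Itga6* and *Itga7*, whose summed means were 39.2 per kb in control and 29.5 per kb in mutant libraries, without overlap. Within this sum *Itga3* and *Itga6* were lower and *Itga7* higher. All 7 epithelial markers also had negative log2 differences, and with 4 of them as a covariate that of *Itga6* was -0.25 instead of -0.43. The groups overlapped in the sums of collagen-binding chains, of RGD-binding chains and of *Itga4* with *Itga9*. These sums are descriptive and carry no test. *Itgb5* and *Itgb4* were next among the beta genes at 55.7 and 27.2 per kb in control, and *Itga6*, *Itga4* and *Itgav* led the alpha genes at 27.6, 17.1 and 15.3 per kb. The levels of *Itga4* and *Itgav* did not differ beyond the spread of *Itga4*, whose control SD was 3.77 per kb. Among cadherins, *Cdh11*, *Cdh2* and *Cdh3* stood at 61.6, 29.4 and 22.6 per kb in control, and the next, *Cdh24* and *Cdh23*, at 3.92 and 3.71 per kb. The lengths of *Itga1*, *Itga2*, *Cdh6*, *Cdh12* and *Cdh24* are approximate, because their start in the table differs from the annotated one.

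**Figure D2:**
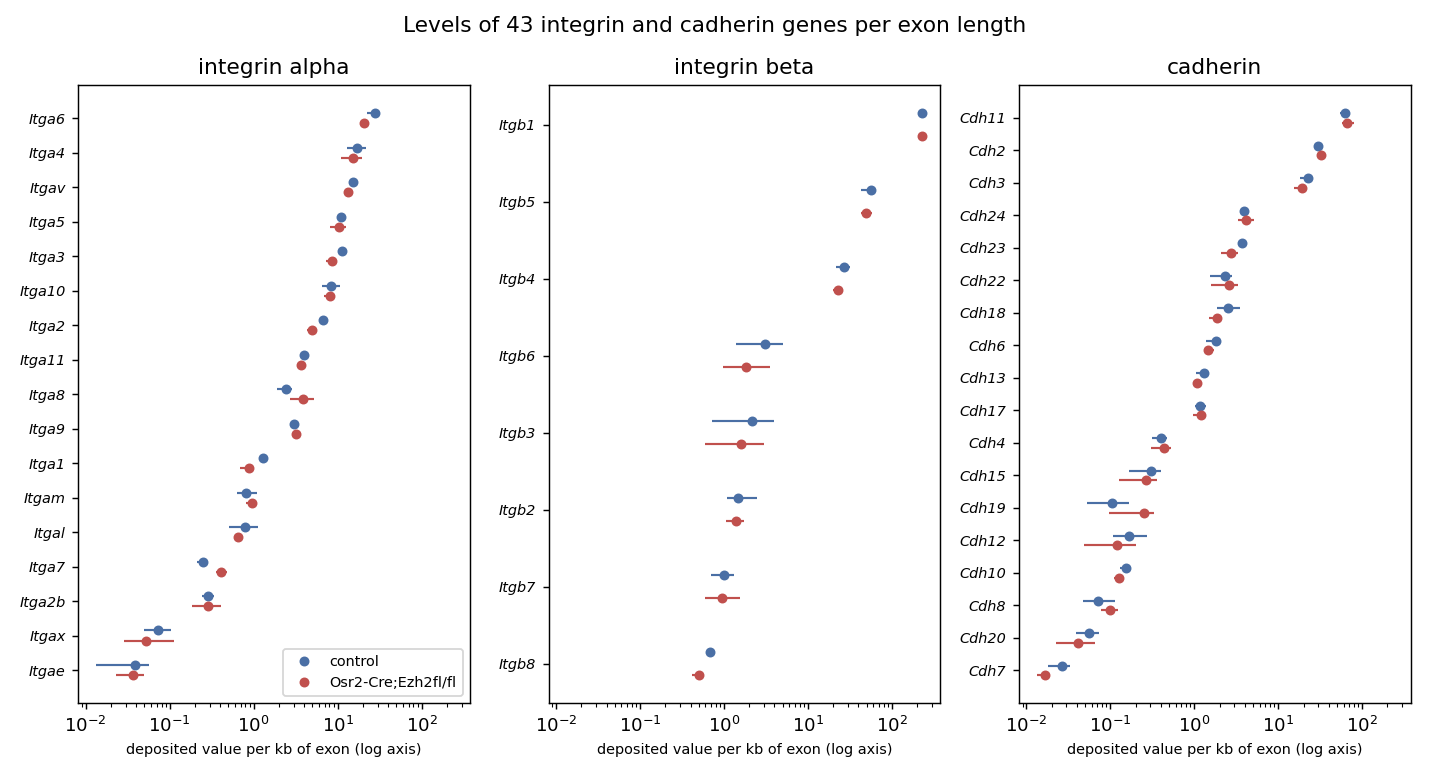
Deposited value per kb of exon (log axis) of all 43 genes, sorted within integrin alpha, integrin beta and cadherin genes. Points are group means of 4 libraries, control in blue and mutant (Osr2-Cre;Ezh2 fl/fl) in red, and lines run from the lowest to the highest library, *Itgb1* being the highest of all.

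Among the collagen-binding alpha chains, *Itga2* fell. *Itga2*, whose product binds fibrillar collagen, read 44.8, 51.1, 50.7 and 46.6 in control and 31.0, 35.6, 40.7 and 36.0 in mutant libraries. All mutant libraries were below all control libraries, with means of 48.3 ± 3.09 and 35.8 ± 3.97 (SD, n = 4). The log2 difference was -0.43 (SE 0.09) with an adjusted p of 0.0481 from limma, and all 4 mutant libraries showed the direction (two-sided exact permutation test over 70 arrangements, p = 0.0286, the smallest that they can give). *Itga1*, whose product prefers the collagen IV of basement membranes, read 22.4, 23.1, 22.4 and 27.5 in control and 12.9, 17.1, 16.9 and 17.9 in mutant libraries. Its groups were apart as well, library 4 being the highest of the control and library 1 the lowest of the mutant group. The log2 difference of *Itga1* was -0.53 (SE 0.12), and its limma adjusted p of 0.0535 missed the threshold. It was called with robust moderation, with *Xist* as a covariate and with voom (adjusted p = 0.0489, 0.0426 and 0.0499), and its adjusted p ran from 0.0426 to 0.507 over the 23 alternatives. The call of *Itga2* rested on a narrow margin. Leaving out any single one of control libraries 1, 2, 3 and 4 or mutant libraries 1, 2 and 4 ended it, with adjusted p of 0.0610, 0.156, 0.184, 0.109, 0.0592, 0.121 and 0.128 in that order, and without mutant library 3 it was 0.0310. Over all 23 alternatives it ran from 0.0310 to 0.293 and passed in 5, while the log2 difference ran from -0.49 to -0.36.

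Both genes lie side by side on the minus strand of chromosome 13, *Itga2* at chr13:114833081-114932100 and *Itga1* at chr13:114953096-115101964 (mm10), 20995 bases apart. The gene *Pelo* lies inside *Itga1* on the same strand and shares no exon base with it. Its values were 16.5, 14.8, 14.1 and 17.2 in control and 16.9, 14.9, 13.2 and 14.3 in mutant libraries, with overlapping groups and a log2 difference of -0.08 (SE 0.10). So the neighbours *Itga1* and *Itga2* were both lower, while the values of the gene nested within *Itga1* were mixed. The other collagen-binding chains, *Itga10* and *Itga11*, are known from cartilage and from fibroblasts including those of the periodontal ligament. *Itga10* lay at 34.1 to 55.8 in control and 35.6 to 47.1 in mutant libraries, and *Itga11* at 18.8 to 22.6 in control and 17.0 to 20.8 in mutant libraries, with overlapping groups and log2 differences of -0.03 and -0.11. That of *Itga10* was -0.30 with epithelial or with endothelial markers as a covariate. Without the 3 libraries highest in enamel transcripts it was -0.34, and none of these passed adjustment in limma. A part of the exon bases of *Itga10* (33.5%) is shared with *Gm42957* on the same strand, so that reads of these genes can be split between them.

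Among the laminin receptors 1 gene, *Itga7*, passed adjustment, and it is given after the more abundant ones. *Itga6*, which pairs with *Itgb4* in the hemidesmosomes of epithelial cells and with *Itgb1* elsewhere, read 200.3, 243, 287 and 267 in control and 188, 165, 199 and 183 in mutant libraries. The highest mutant value was just under the lowest control value, that of library 1. Its log2 difference was -0.43 (SE 0.11, limma adjusted p = 0.101). *Itga3*, another laminin-binding chain of basal epithelial cells and of many other cells, read 58.6, 62.0, 64.8 and 73.4 in control and 54.8, 49.5, 42.1 and 51.9 in mutant libraries. These groups did not overlap either, and the log2 difference was -0.38 (SE 0.10, limma adjusted p = 0.101). Neither passed adjustment, although *Itga6* did without control library 1 (limma adjusted p = 0.0279, with a range of 0.0279 to 0.636 over its alternatives). *Itgb4*, which pairs only with *Itga6*, read 154, 178, 206 and 226 in control and 169, 154, 177 and 141 in mutant libraries, so that its groups overlapped (log2 difference -0.24, SE 0.12, limma adjusted p = 0.472).

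Epithelial markers had overlapping groups. *Epcam*, a surface protein of epithelial cells, read 95.6, 118, 119 and 114 in control and 95.9, 67.5, 66.1 and 92.5 in mutant libraries, with control library 1 among the mutant values. *Krt5*, a keratin of basal cells, read 863, 1100.3, 1505 and 1992 in control and 1127, 827, 1044 and 854 in mutant libraries, highest in control libraries 3 and 4. The log2 differences of *Epcam* and *Krt5* were -0.48 and -0.44, in the same direction as that of *Itga6*. All 7 genes of the epithelial list had negative differences, 1 of them with an unadjusted p under 0.05 and none after adjustment in limma. Of all tested genes 4.87% were lower at that unadjusted p and 0.512% after adjustment. With the 4 epithelial markers *Epcam*, *Krt5*, *Krt14* and *Cdh1* in the fit as their mean level, the log2 differences of *Itga6*, *Itga3* and *Itgb4* were -0.25, -0.30 and -0.03. The unadjusted p of *Itga6* and *Itga3* stayed under 0.05 there, at 0.0138 and 0.0234 in limma. The differences of *Itga1* and *Itga2* were -0.51 and -0.41 in that fit, close to those without the covariate, but the call of *Itga2* was lost there (limma adjusted p = 0.149, and 0.160 for *Itga1*). Since these 4 markers had negative log2 differences too, this fit cannot separate them from the genotype. The part of epithelial cells was not tested.

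*Itga7*, the laminin receptor chain known from skeletal muscle and vessel walls, rose. It read 1.72, 2.19, 1.84 and 2.32 in control and 2.92, 3.93, 3.35 and 3.10 in mutant libraries, from 98 to 258 estimated reads per library. Every mutant library was above every control library, with group means of 2.02 ± 0.285 and 3.32 ± 0.440 (SD, n = 4), a ratio of 1.65. The log2 difference was 0.52 (SE 0.11) with a limma adjusted p of 0.0497 and an exact permutation p of 0.0286. This call was as narrow as that of *Itga2*. It was lost without any single one of control libraries 1, 2, 3 and 4 or mutant libraries 2, 3 and 4, with adjusted p of 0.0999, 0.109, 0.187, 0.0741, 0.128, 0.0953 and 0.115 in that order, and without mutant library 1 it was 0.0462. Over its 22 alternatives the adjusted p ran from 0.0337 to 0.430 and passed in 5, and the log2 difference ran from 0.25 to 0.72. As a share of the 3 laminin-binding alpha genes, all per kb, *Itga7* made up 0.650, 0.709, 0.524 and 0.673% in control and 1.17, 1.77, 1.39 and 1.29% in mutant libraries, so it remained the minor one beside *Itga6* in every library. Of 9 skeletal muscle markers 7 were in the table and 3 tested, and their sums of 9.12, 8.02, 7.88 and 45.2 in control and 11.6, 7.86, 3.17 and 6.28 in mutant libraries, led by *Acta1*, overlapped and were highest in control library 4. The 7 markers of pericytes and smooth muscle summed to 340.1, 401, 354 and 421 against 341, 328, 307 and 300.4, led by *Notch3*, with overlapping groups. Of these 7, *Cspg4* was higher and *Rgs5* lower at an unadjusted p under 0.05 in limma, beside 8.27% and 4.87% of all tested genes. Their log2 differences were 0.26 and -0.36, and none of the 7 passed adjustment. The part of muscle cells and pericytes in the rise of *Itga7* was not tested.

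No receptor of RGD-containing proteins passed adjustment. *Itgav*, which pairs with several beta chains to bind vitronectin, osteopontin and latent TGF-beta, read 156, 177, 163 and 159.5 in control and 145, 137, 149 and 137 in mutant libraries. All mutant libraries were lower, but by little: the log2 difference was -0.21 (SE 0.06, limma adjusted p = 0.170). *Itgb8*, a partner of *Itgav* that binds latent TGF-beta, read 7.49, 7.23, 8.58 and 7.07 in control and 5.14, 6.38, 4.67 and 6.34 in mutant libraries. Its groups were apart at a low level, with a log2 difference of -0.38 (SE 0.12, limma adjusted p = 0.159). *Itgb5*, a partner of *Itgav* that binds vitronectin, read 152, 213, 211 and 216 in control and 208, 151, 179 and 168 in mutant libraries. The groups overlapped, with control library 1 far under the other control libraries (log2 difference -0.16, SE 0.13).

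*Itga8* had a higher mean in mutant libraries, also without passing. Its product pairs with *Itgb1* to bind nephronectin and other RGD proteins and is known from mesenchyme beside epithelia. It read 20.8, 18.8, 14.0 and 18.5 in control and 19.7, 27.6, 38.6 and 29.3 in mutant libraries, mutant library 1 alone falling among the control values. The log2 difference of 0.62 (SE 0.19) had an adjusted p of 0.157 in limma and an exact permutation p of 0.0571. It passed without mutant library 1, where the log2 difference was 0.79 and the limma adjusted p 0.0429, in a range of 0.0429 to 0.899 over its 23 alternatives. The log2 difference was 0.28 with endothelial markers as a covariate and 0.33 without the 3 libraries highest in enamel transcripts. An antisense gene, *E030013I19Rik*, overlaps *Itga8* and shares 5.05% of its exon bases. Whether counting used strand is not given in the sources used here, so that reads from this overlap cannot be told apart. *E030013I19Rik* read 0.513, 0.543, 0.282 and 0.629 in control and 0.828, 0.633, 1.76 and 0.845 in mutant libraries, highest in mutant library 3 like *Itga8*. Its groups were barely apart, with at most 40 estimated reads in control and at least 41 in mutant libraries. Such a separation upward was shown by 5.76% of all tested genes. At these levels, *E030013I19Rik* was below the limit for testing. *Itga5*, the fibronectin receptor chain, lay at 49.3 to 59.9 in control and 40.5 to 63.0 in mutant libraries with a log2 difference of -0.09. The ratio of *Itga8* to *Itga5* was 0.348, 0.342, 0.271 and 0.374 in control and 0.428, 0.439, 0.952 and 0.535 in mutant libraries, higher in each of the latter. The ratio carries no test, and the groups of *Itga8* and of *Itga5* each overlapped. Mutant library 1, within the control range of *Itga8*, read 46.1 in *Itga5*, under all control libraries.

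The promoters of the collagen receptor pair and of *Itga8* are shown. They were chosen because the pair lie next to each other with lower values in all mutant libraries, while *Itga8* had a higher mean there. Of these genes *Itga2* alone passed adjustment in limma. The windows come from the RefSeq table of GRCm38.p6, the build also called mm10, and run from 250 bases before to 50 bases after the start. They are on the minus strand, written 5′ to 3′ as transcribed, with each CG dinucleotide, which reads the same on both strands, in capitals. The *Itga2* window (chr13:114932051-114932350) holds 13 CG, the *Itga1* window (chr13:115101915-115102214) 12 and the *Itga8* window (chr2:12301895-12302194) 23. Of all 32851 windows in the table, 37.9%, 39.6% and 21.5% hold at least as many, and 94.6% hold at least 1. A window was found for 29 of the 43 genes, 33 windows in all with a median of 12 CG, beside a median of 7 over all windows.
Itga2: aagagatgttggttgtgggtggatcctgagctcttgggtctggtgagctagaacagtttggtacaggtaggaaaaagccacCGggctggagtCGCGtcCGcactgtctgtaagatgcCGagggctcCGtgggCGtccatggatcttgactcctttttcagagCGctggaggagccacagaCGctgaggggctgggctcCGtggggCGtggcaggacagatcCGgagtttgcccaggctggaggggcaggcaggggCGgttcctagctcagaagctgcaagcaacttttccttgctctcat
Itga1: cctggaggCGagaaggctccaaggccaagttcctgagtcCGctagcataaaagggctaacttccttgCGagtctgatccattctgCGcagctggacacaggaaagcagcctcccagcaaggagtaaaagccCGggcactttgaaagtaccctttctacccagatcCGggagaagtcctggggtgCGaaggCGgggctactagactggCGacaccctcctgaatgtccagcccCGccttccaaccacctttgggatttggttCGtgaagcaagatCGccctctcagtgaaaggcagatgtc
Itga8: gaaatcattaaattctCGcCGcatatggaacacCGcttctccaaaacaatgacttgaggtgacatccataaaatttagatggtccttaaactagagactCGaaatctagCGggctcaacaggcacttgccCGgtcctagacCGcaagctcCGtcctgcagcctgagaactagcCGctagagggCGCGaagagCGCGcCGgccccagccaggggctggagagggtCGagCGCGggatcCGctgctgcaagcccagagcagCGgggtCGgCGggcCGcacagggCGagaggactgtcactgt

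The beta chains *Itgb3* and *Itgb6* varied more between libraries than between groups. *Itgb3*, which with *Itgav* forms the adhesion receptor of osteoclasts, read 4.20, 23.1, 10.5 and 13.3 in control and 11.9, 3.52, 17.8 and 4.66 in mutant libraries. The highest library was control library 2 and the lowest mutant library 2, and both groups held high and low libraries (log2 difference -0.43, SE 0.54). The difference was -0.83 without control library 1, -0.10 without control library 2 and -0.79 without mutant library 3. Osteoclast markers stood in a similar order: all 6 were in the table, and their sums were 223, 1174, 366 and 548 in control and 629.9, 209.6, 907 and 195 in mutant libraries, led by *Ctsk*, the collagen-degrading protease. Control library 2 and mutant library 3 were highest in both *Itgb3* and *Ctsk*, and control library 1 and mutant libraries 2 and 4 were lowest in both. *Itgb6*, named after its values were seen, pairs with *Itgav* in epithelia and is known from the enamel organ. It read 9.76, 16.4, 26.7 and 36.0 in control and 13.5, 6.96, 25.4 and 6.90 in mutant libraries (log2 difference -0.75, SE 0.46, limma adjusted p = 0.579). *Amelx*, the gene of the main enamel matrix protein, read 349, 1377, 9733 and 16250.0 in control and 807, 376, 7818 and 316 in mutant libraries, so the 3 libraries high in *Amelx* were those high in *Itgb6*. Adjusted for *Enam*, *Ambn* and *Amelx*, the log2 difference of *Itgb6* was -0.09. The part of osteoclasts or ameloblasts in either gene's values was not tested further.

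**Figure D3:**
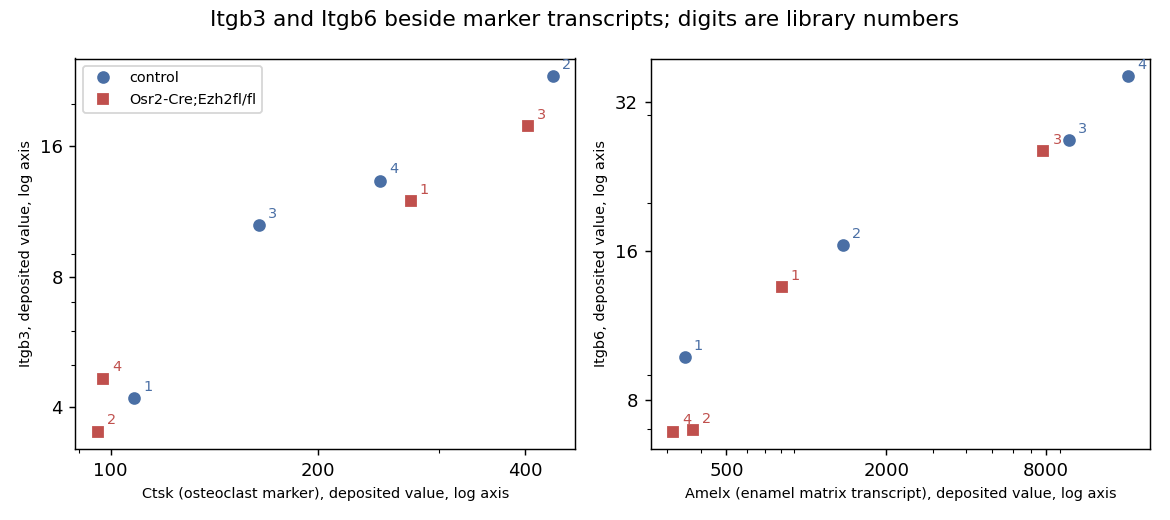
Deposited value of *Itgb3* against *Ctsk* (left) and of *Itgb6* against *Amelx* (right), all on log axes, with 1 point per library and its number beside it, control as blue circles and mutant (Osr2-Cre;Ezh2 fl/fl) as red squares. Control library 2 is highest on the left and control library 4 on the right.

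Among the integrins that bind cell-surface ligands and tenascins the groups overlapped. *Itga4*, whose product binds VCAM1 and fibronectin, read 307, 242, 228 and 179 in control and 189, 276, 155 and 238 in mutant libraries, with wide and overlapping groups (log2 difference -0.16, SE 0.20). The log2 difference of *Itga4* was -0.42 with enamel transcripts, -0.49 with epithelial markers and -0.44 with endothelial markers as a covariate, none of them passing adjustment in limma. It was -0.03 without control library 1 and -0.02 without mutant library 3. *Itga9*, a receptor for tenascin-C known from lymphatic vessels and other cells, read 22.8, 23.6, 23.0 and 23.4 in control and 22.6, 28.3, 23.3 and 23.2 in mutant libraries. Except in mutant library 2 its values were nearly constant, and the log2 difference was 0.06 (SE 0.08). The chains of white blood cells were low throughout. *Itgam* of myeloid cells read 3.87, 5.51, 3.89 and 3.17 in control and 4.11, 5.34, 4.74 and 4.78 in mutant libraries, with overlap. *Itgal* of lymphocytes and other leukocytes read 7.37, 5.78, 4.47 and 3.30 in control and 4.61, 4.32, 4.05 and 4.36 in mutant libraries. Their partner *Itgb2* read 3.28, 7.54, 3.37 and 3.73 in control and 5.06, 3.46, 5.25 and 3.24 in mutant libraries. The groups overlapped in all 3, with log2 differences of 0.18, -0.18 and -0.02, and *Itgb2* was highest in control library 2. That of *Itgal* was -0.47 with epithelial markers and -0.39 with enamel transcripts as a covariate, and -0.03 without control library 1. None of these passed adjustment in limma. Most of the exon bases of *Itgam* (68.7%) are shared with the annotated gene *Gm49368* on the same strand, which makes its level uncertain. *Itgax* of dendritic cells read 0.243, 0.494, 0.241 and 0.407 in control and 0.190, 0.136, 0.538 and 0.142 in mutant libraries, from 8 to 37 estimated reads. *Itgae*, the partner of *Itgb7* on T cells of epithelia, had only 3 to 14 estimated reads per library, and *Itgb7* lay at 1.95 to 3.65 in control and 1.67 to 4.26 in mutant libraries (log2 difference -0.10, SE 0.23). These depths are too low to compare *Itgax* or *Itgae* between the groups. The 9 leukocyte and macrophage markers, all in the table, summed to 173, 239, 174 and 150.1 in control and 223, 189, 206 and 185 in mutant libraries, led by *Csf1r*, with overlapping groups.

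The platelet chain *Itga2b* read 1.37, 1.86, 1.34 and 1.65 in control and 1.72, 1.00, 2.21 and 1.39 in mutant libraries, with overlap and a log2 difference of -0.0028 (SE 0.15). Of 6 platelet markers, 4 were in the table, with sums of 14.9, 16.6, 13.3 and 12.8 in control and 19.4, 21.3, 17.0 and 18.3 in mutant libraries, led by *Pf4*. Each mutant sum was above each control sum, while the groups overlapped in each of the 4 markers and in *Itga2b*. Of the 3 markers tested, 1 was higher at an unadjusted p under 0.05 in limma, beside 8.27% of all tested genes, and none passed adjustment. All 7 endothelial markers were in the table, and their sums were 363, 414, 404 and 401 in control and 361, 346, 329 and 328 in mutant libraries, led by *Cdh5*, the cadherin of vessel walls, with every mutant sum lower. All 7 had negative log2 differences, 3 with an unadjusted p under 0.05, beside 4.87% of all tested genes that were lower, and none after adjustment in limma. With the mean level of these markers in the fit, also tried once the data were known, *Itga1*, *Itga2*, *Itga7*, *Itgb8* and *Cdh23* kept an unadjusted p under 0.05 without passing adjustment, and *Itga3*, *Itga6*, *Itga8* and *Itgav* did not, at 0.0703, 0.0818, 0.204 and 0.115 in limma. Since all 7 markers had negative log2 differences, their mean level went partly with genotype. This fit therefore cannot separate the markers from the genotype, and the part of endothelial cells was not tested.

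The cadherins of mesenchyme were abundant, with overlapping groups. *Cdh11*, the cadherin of loose mesenchyme and osteoblasts, read 593, 576, 545 and 481 in control and 522, 703, 506 and 648 in mutant libraries. *Cdh2*, N-cadherin, known from condensing mesenchyme and odontoblasts, read 239.8, 232, 232 and 243 in control and 235, 298, 272 and 250.1 in mutant libraries. Mutant library 2 was highest in both, with log2 differences of 0.11 (SE 0.12) and 0.15 (SE 0.08) and limma adjusted p of 0.833 and 0.505. Per kb, *Cdh11* made up 46.8 ± 2.43% (SD, n = 4) of all 18 cadherin genes in control and 49.3 ± 2.47% in mutant libraries. *Cdh3*, P-cadherin of epithelia, read 79.6, 104, 107 and 105 in control and 96.1, 84.4, 66.7 and 87.9 in mutant libraries, lowest in control library 1 and mutant library 3 (log2 difference -0.24, SE 0.13, limma adjusted p = 0.500). The epithelial *Cdh1*, outside the 43, read 206, 261, 382 and 431 in control and 241, 208, 293 and 199 in mutant libraries, with overlapping groups and a log2 difference of -0.40.

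*Cdh23* was the 1 cadherin with an unadjusted p under 0.05 in limma. It read 66.0, 68.5, 58.5 and 58.5 in control and 35.4, 56.5, 49.9 and 42.3 in mutant libraries, without overlap. The log2 difference was -0.46 (SE 0.13) with a limma adjusted p of 0.143, so it did not pass. *Cdh23* spans chr10:60302748-60696490 on the minus strand, and *Vsir* lies within it on the opposite strand with no shared exon base. *Vsir* read 9.80, 15.3, 10.7 and 10.7 in control and 13.6, 9.10, 14.7 and 9.01 in mutant libraries and did not follow *Cdh23*. The other tested cadherins, *Cdh4*, *Cdh6*, *Cdh10*, *Cdh13*, *Cdh15*, *Cdh17*, *Cdh18*, *Cdh22* and *Cdh24*, had log2 differences from -0.35 for *Cdh18* to 0.11 for *Cdh22*, none with an unadjusted p under 0.05 in limma. Their group means ran from 0.998 for *Cdh15* to 16.4 for *Cdh6* in control. *Cdh18*, a cadherin known from brain, lay at 8.44 to 15.9 in control and 6.80 to 9.42 in mutant libraries. Its log2 difference was larger in size than that of *Cdh23* with enamel, epithelial or endothelial transcripts as a covariate and without the 3 libraries highest in *Amelx*. It was smaller, at -0.19, without control library 1 and, at -0.26, without mutant library 1. With the epithelial markers its log2 difference was -0.68 with an adjusted p of 0.0337 in limma, the only pass in a range of 0.0337 to 0.751 over its alternatives.

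Some cadherins that mark other lineages, *Cdh7*, *Cdh8*, *Cdh12*, *Cdh15*, *Cdh19* and *Cdh20*, were near the limit of detection. *Cdh15*, M-cadherin of muscle precursors, read 0.539, 1.30, 1.07 and 1.09 in control and 1.18, 0.409, 1.15 and 0.697 in mutant libraries, with overlap. *Cdh19*, known from the Schwann cell lineage, read 0.226, 0.711, 0.395 and 0.443 in control and 0.417, 1.26, 1.43 and 1.25 in mutant libraries. Mutant libraries 2 to 4 lay above the control range and mutant library 1 lay within it, all on 12 to 100 estimated reads. The exact permutation p was 0.0857, and limma without the limit on low values gave a log2 difference of 0.51 and an adjusted p of 0.217. The 6 Schwann cell markers, all in the table, summed to 43.1, 57.7, 52.4 and 59.4 in control and 50.1, 38.9, 54.4 and 39.4 in mutant libraries, led by *Mbp*, with overlap. Of the 4 tested, 2 had positive and 2 negative log2 differences, with a median of -0.04. After adjustment in limma 1 fell and 0 rose, beside 0.512% and 1.56% of all tested genes. The part of Schwann cells in the values of *Cdh19* was not tested. *Erbb3*, a receptor of that lineage, read 18.0, 20.5, 20.9 and 20.2 in control and 16.2, 13.7, 14.1 and 14.3 in mutant libraries. It fell (log2 difference -0.42, SE 0.09, limma adjusted p = 0.0388), a call that ended without any single one of control libraries 2, 3 and 4 or mutant libraries 2, 3 and 4 (adjusted p = 0.138, 0.166, 0.115, 0.111, 0.0723 and 0.124, in a range of 0.0241 to 0.543 over the alternatives in limma). *Cdh7*, *Cdh8*, *Cdh12* and *Cdh20*, type II cadherins known mainly from nervous tissue, had means of 0.268, 0.546, 1.05 and 0.225 in control and 0.166, 0.764, 0.764 and 0.165 in mutant libraries, with overlap in each.

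The matrix proteins that integrins bind were read from a list of 39 genes, of which 34 were tested. In limma 2 rose and 0 fell, where 1.56% of all tested genes rose and 0.512% fell. At an unadjusted p under 0.05, 5 were higher and 5 lower, beside 8.27% and 4.87% of all tested genes. The median log2 difference of the list was -0.03. *Ibsp*, the RGD-containing bone sialoprotein, had the largest rise: it read 82.1, 141, 119 and 114 in control and 498, 331, 396 and 437 in mutant libraries. The log2 difference was 1.87 (SE 0.17) with an adjusted p of 0.00126 from limma. It is also 1 of the 5 bone markers, and the other 4, led by *Alpl*, summed to 1085, 1172, 1026 and 1182 in control and 1431, 1318, 1108 and 1038 in mutant libraries, with overlap. Of these 4, *Runx2* was higher in every mutant library without passing (log2 difference 0.41, SE 0.09, limma adjusted p = 0.0678). *Fbln5*, an elastic-fibre protein that binds integrins through RGD, rose as well, from 37.5, 41.7, 40.4 and 38.5 in control to 51.6, 56.5, 61.0 and 47.9 in mutant libraries (log2 difference 0.44, SE 0.08, limma adjusted p = 0.0303). The call of *Ibsp* held without each single library, at an adjusted p of up to 0.00988, and was lost only where the 3 libraries highest in *Amelx* were left out together (0.160). That of *Fbln5* ended without any single one of control libraries 1, 2, 3 and 4 or mutant libraries 2 and 3 (limma adjusted p = 0.0724, 0.0757, 0.106, 0.0945, 0.0922 and 0.0502, in a range of 0.0231 to 0.390 over the alternatives). *Col4a1*, a chain of the basement membrane collagen bound by the product of *Itga1*, read 607, 717, 674 and 726 in control and 503, 551, 401 and 503 in mutant libraries. It was lower in each mutant library by a log2 difference of -0.48 (SE 0.11) but missed the threshold (limma adjusted p = 0.0623). It passed with quantile normalization alone (limma adjusted p = 0.0221, in a range of 0.0221 to 0.546 over the alternatives). *Vtn*, *Fga*, *Fgb* and *Fgg* of this list were not analysed here.

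Of the 32 genes for adaptors inside the cell, 31 were tested, with a median log2 difference of 0.00. In limma 2 rose and 0 fell, beside 1.56% and 0.512% of all tested genes, and 5 were higher and 2 lower at an unadjusted p under 0.05, beside 8.27% and 4.87% of all tested genes. *Parvb*, a parvin that links integrin-linked kinase to actin, read 113, 94.3, 80.2 and 107 in control and 134, 203, 184 and 203 in mutant libraries, a log2 difference of 0.86 (SE 0.15, limma adjusted p = 0.0207). *Tns3*, a tensin that binds integrin tails, read 133, 142, 129.8 and 134 in control and 175, 197, 177 and 167 in mutant libraries, a log2 difference of 0.40 (SE 0.07, limma adjusted p = 0.0181). Both were higher in all 4 mutant libraries. The call of *Parvb* ended without any single one of control libraries 2 and 3 or mutant libraries 2, 3 and 4 (limma adjusted p = 0.0740, 0.0700, 0.0743, 0.0639 and 0.0739, in a range of 0.00708 to 0.383 over the alternatives). That of *Tns3* ended without any single one of control libraries 3 and 4 (limma adjusted p = 0.0852 and 0.0599, in a range of 0.0116 to 0.368). *Tns2*, a related tensin, came next, with a log2 difference of 0.46 (SE 0.11) and a limma adjusted p of 0.0699 that did not pass. The core adaptors *Tln1* and *Vcl*, talin and vinculin, named after their values were seen, had overlapping groups and log2 differences of -0.13 and -0.20. Among the 15 catenins and cadherin partners, 14 were tested and 13 had a negative difference, with a median of -0.12. After adjustment 1 rose and 0 fell in limma, beside 1.56% and 0.512% of all tested genes, and 1 was higher and 3 lower at an unadjusted p under 0.05, beside 8.27% and 4.87% of all tested genes. The gene that rose was *Ctnnbip1*, an inhibitor of the binding of beta-catenin to TCF, at 70.1, 71.1, 61.8 and 68.5 in control and 89.4, 96.3, 78.8 and 92.9 in mutant libraries (log2 difference 0.39, SE 0.08, limma adjusted p = 0.0418). It was higher in all 4 mutant libraries, and the call ended without any single one of control libraries 1, 2, 3 and 4 or mutant libraries 1, 2 and 4 (limma adjusted p = 0.0700, 0.0980, 0.160, 0.108, 0.0652, 0.118 and 0.135, in a range of 0.0257 to 0.248). *Jup*, plakoglobin of epithelial junctions, and *Adam10*, a protease that sheds cadherins, were lower in all 4 mutant libraries without passing, at -0.41 and -0.20 (limma adjusted p of 0.103 and 0.152). *Ctnnb1*, beta-catenin itself, read 1716, 1892, 1822 and 1900.5 in control and 1868, 1678, 1583 and 1752 in mutant libraries, with overlap. *Ctnna3* was not analysed here.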

How the data were processed

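RNA of molar mesenchyme was sequenced in 8 libraries, 4 of each genotype, at postnatal day 3. The signal values of the table were scaled between libraries by the authors before they were deposited; the submitters' notes name CASAVA 1.8.2, STAR 2.5.3a and Partek on mm10, while the paper names TopHat and RPKM, and the values carry no factor of gene length. Estimated depth was 48.3 to 68.8 M reads per library. Log2(value + 1) was fitted with limma 3.58.1 in R 4.3.3, with a mean-variance trend, for the 14854 genes reaching 1 in 4 or more libraries, and p-values were adjusted by Benjamini-Hochberg over all of them. Group means of single genes were also compared by a two-sided exact permutation test over all 70 arrangements. Exon lengths and overlaps came from GENCODE release 21 (GRCm38), and promoter windows from RefSeq. Tables and figures were made with Python 3.11.15, pandas 2.3.3 and matplotlib 3.10.9. Alternatives covered pseudocount, filter, scaling, moderation, voom, covariates, a replicate block and leaving out libraries. Library values are given for members with an unadjusted p under 0.05, the most abundant of each family and those that mark a cell type. From each pathway list the genes that passed adjustment are named, or the first 3 by p where fewer passed, and a few others. The marker and pathway lists were set down before the tests, 1 epithelial marker being left out later. Both members and lists were chosen with earlier results of these data known. The procedure was tested on simulated data, where 7.69% of calls were false at the threshold of 0.05. It recovered 85% of genes with a log2 change of 1 and 95% of those with 2. The log2 differences of the tested members ran from -0.75 to 0.62, and changes of that size were not simulated. Noise was drawn separately for each gene, so differences in cell mixture between libraries were not simulated either.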

Additional observations from a re-analysis of the deposited data

Results flagged for a closer look

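In 9 of the 86 groups of 4 libraries examined for the 43 genes, 1 library stood far from the other 3. With groups this small about 4.3 would be picked by chance, and no cause was tested. *Itga1* was at 27.5 in control library 4, above the 22.4 to 23.1 of the other 3 libraries of its group. *Itga1* was at 12.9 in mutant library 1, below the 16.9 to 17.9 of the other 3 libraries of its group. *Itga9* was at 28.3 in mutant library 2, above the 22.6 to 23.3 of the other 3 libraries of its group. *Itgax* was at 0.538 in mutant library 3, above the 0.136 to 0.190 of the other 3 libraries of its group. *Itgb2* was at 7.54 in control library 2, above the 3.28 to 3.73 of the other 3 libraries of its group. *Itgb5* was at 152 in control library 1, below the 211 to 216 of the other 3 libraries of its group. *Cdh3* was at 79.6 in control library 1, below the 104 to 107 of the other 3 libraries of its group. *Cdh10* was at 1.12 in mutant library 1, below the 1.32 to 1.35 of the other 3 libraries of its group. *Cdh19* was at 0.417 in mutant library 1, below the 1.25 to 1.43 of the other 3 libraries of its group.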

How the results depend on the processing

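These results rest on 4 libraries a group, 1 tissue at 1 age and 1 table of values that were scaled before they were deposited. Of the alternatives, 3 were added after the data were seen: the epithelial covariate, the endothelial covariate, and leaving out control libraries 3 and 4 and mutant library 3, those highest in enamel transcripts. The epithelial covariate was set to its 4 markers after results with a larger set were known. With a filter at 10, *Itga7*, *Itgb8* and other low members gave no value. None of the 9 members with an unadjusted p under 0.05 turned direction in the alternatives run, and the other members that did are given below. The cause was not tested.

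Over the whole table limma called 308 genes. The count was 119 with a filter at 10, 191 with the epithelial covariate, 40 with the endothelial covariate, and 1 without the 3 libraries highest in enamel transcripts, and it ran from 128 to 384 with single libraries left out. Of the members, 2 were called, *Itga2* and *Itga7*, and the same 2 with a pseudocount of 5. With robust moderation 3 were called, these and *Itga1*, and with voom 2, *Itga1* and *Itga7*. The count was 1 with a pseudocount of 0.1 and with median-of-ratios scaling (*Itga2*), without the trend (*Itga7*), with *Xist* as a covariate (*Itga1*) and with the epithelial covariate (*Cdh18*). It was 0 with no filter, with the filter at 10, with quantile normalization, with enamel transcripts as a covariate, with the endothelial covariate and without the 3 libraries, and 0 to 2 with single libraries left out. The members with an unadjusted p under 0.05 in limma numbered 9, beside 13.1% of all tested genes. Where 0 members were called, they numbered 10 with no filter, 7 with the filter at 10, 11 with quantile normalization, 13 with enamel transcripts as a covariate, 6 with the endothelial covariate and 10 without the 3 libraries. They ran from 9 to 14 with single libraries left out, 14 without control library 1. The share of all tested genes at this threshold is not given here for the alternatives. These counts are therefore not read as a result about the members.

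When the replicate number was added as a block, 73 genes of the whole table were called, 64 higher and 9 lower, and 0 members. Of the members, 10 had an unadjusted p under 0.05 in limma there, again without the share of all tested genes beside it. The study's methods speak of pairs of samples, and the labels carry only the number. After the group means were taken off, the correlations between the control and the mutant library of the same number were -0.34, -0.08, 0.22 and -0.43.

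With median-of-ratios scaling, the turned log2 differences were -0.0086 for *Itgb1*. With quantile normalization, the turned log2 differences were -0.030 for *Itgb1* and -0.021 for *Cdh17*. With a pseudocount of 5, the turned log2 differences were 0.0028 for *Itga2b*. With *Xist* as a covariate, the turned log2 differences were 0.0092 for *Itga2b* and 0.024 for *Itgb2*. With enamel transcripts as a covariate, the turned log2 differences were 0.093 for *Itga2b*, -0.014 for *Itgb1*, 0.023 for *Itgb2*, 0.070 for *Itgb3*, 0.17 for *Itgb7*, -0.096 for *Cdh4*, -0.015 for *Cdh11*, 0.032 for *Cdh15*, -0.090 for *Cdh17*, -0.17 for *Cdh22* and -0.040 for *Cdh24*. With epithelial markers as a covariate, the turned log2 differences were 0.094 for *Itga2b*, -0.016 for *Itgb1*, 0.0078 for *Itgb2*, 0.17 for *Itgb3*, 0.038 for *Itgb5*, 0.051 for *Itgb6*, 0.20 for *Itgb7*, -0.13 for *Cdh4*, -0.058 for *Cdh11*, 0.095 for *Cdh15*, -0.11 for *Cdh17*, -0.19 for *Cdh22* and -0.098 for *Cdh24*. With endothelial markers as a covariate, the turned log2 differences were 0.045 for *Itga11*, 0.12 for *Itga2b*, 0.34 for *Itgb2*, 0.60 for *Itgb3*, 0.15 for *Itgb5*, 0.21 for *Itgb7*, 0.0018 for *Cdh3*, -0.024 for *Cdh4*, -0.043 for *Cdh11*, 0.22 for *Cdh15*, -0.079 for *Cdh17*, -0.091 for *Cdh22* and -0.18 for *Cdh24*. With each of the 8 libraries left out in turn, log2 differences that turned ran from -0.20 to 0.0093 for *Itga5*, -0.0088 to 0.095 for *Itga9*, -0.13 to 0.10 for *Itga10*, -0.11 to 0.11 for *Itga2b*, -0.0052 to 0.036 for *Itgb1*, -0.12 to 0.21 for *Itgb2*, -0.29 to 0.033 for *Itgb7*, -0.0017 to 0.20 for *Cdh4*, -0.23 to 0.012 for *Cdh15*, -0.011 to 0.12 for *Cdh17*, -0.060 to 0.30 for *Cdh22* and -0.056 to 0.14 for *Cdh24*.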
